A study of Mus musculus with 8 samples.

Results

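Red blood cell genes were followed in RNA from 8 single mouse embryos at embryonic day 9.5, when blood from the yolk sac fills the first circulation. Rows were taken by gene symbol, from a list of 31 genes of globin chains, haem synthesis, membrane skeleton and erythroid regulators, together with any symbol starting with Hba- or Hbb-. All 31 were present and the symbol pattern added 1 more, Hbb-bh2, so that 32 of 41709 symbols are described. Litters came from parents that both carried 1 copy of Smo with the K399A substitution. From these litters, 4 embryos with only wild-type Smo (WT) were compared with 4 embryos homozygous for the substitution (mutant). The change is in the germline, so every cell of a mutant carries it, and Smo itself encodes Smoothened, which passes the Hedgehog signal into the cell. Each library came from a whole embryo, and which embryo came from which litter is not given. P-values therefore rest on the spread between single embryos, whatever its source.

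Primitive red cells arise in the blood islands of the yolk sac, enter the circulation while still nucleated, and mature together as a wave. They first make the embryonic chains zeta (Hba-x), beta-h1 (Hbb-bh1) and epsilon-y (Hbb-y), with alpha chains (Hba-a1, Hba-a2) alongside. Over their maturation beta-h1 gives way to epsilon-y and zeta to alpha, while the adult beta chains (Hbb-bs, Hbb-bt) belong mainly to later, definitive red cells. Gata1, Klf1 and the complex built around Tal1 and Lmo2 drive the programme, haem enzymes supply the oxygen-binding group, and spectrin with its anchors shapes the membrane.

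The sequences upstream of 6 of these genes are shown because they precede the transcripts on which most of the results below rest, the globin chains and the erythroid haem enzyme. Each run is the 250 bases before the RefSeq start of the gene on GRCm38.p6, written 5′ to 3′ on the gene's own strand. Capitals mark matches on either strand to a GATA word (AGATAA, likewise AGATAG, the form TGATAA, and finally TGATAG), to CCAAT, to the CACC-type word CCNCNCCC, or to TATAA, and neighbouring or overlapping matches run together. Hbb-y lies at chr7:103853208-103853457 (minus strand), Hbb-bs at chr7:103827929-103828178 (minus), Hbb-bt at chr7:103813924-103814173 (minus), Hba-x at chr11:32276350-32276599 (plus), Hba-a2 at chr11:32296242-32296491 (plus) and Alas2 at chrX:150547167-150547416 (plus).
Hbb-y: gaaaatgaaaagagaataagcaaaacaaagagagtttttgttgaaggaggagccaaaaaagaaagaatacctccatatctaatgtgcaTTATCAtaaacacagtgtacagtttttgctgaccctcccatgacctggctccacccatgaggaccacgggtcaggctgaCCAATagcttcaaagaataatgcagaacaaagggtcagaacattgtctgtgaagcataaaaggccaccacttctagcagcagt
Hba-x: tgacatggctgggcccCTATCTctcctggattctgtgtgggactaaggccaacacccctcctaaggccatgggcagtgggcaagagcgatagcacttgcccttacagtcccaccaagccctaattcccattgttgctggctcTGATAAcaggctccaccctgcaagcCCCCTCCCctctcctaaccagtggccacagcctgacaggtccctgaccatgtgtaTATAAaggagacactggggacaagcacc
Hba-a2: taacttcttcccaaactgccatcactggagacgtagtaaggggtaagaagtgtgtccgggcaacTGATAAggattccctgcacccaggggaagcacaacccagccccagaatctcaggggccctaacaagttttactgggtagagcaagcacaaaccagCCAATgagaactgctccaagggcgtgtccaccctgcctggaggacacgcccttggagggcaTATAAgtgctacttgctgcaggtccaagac
Hbb-bs: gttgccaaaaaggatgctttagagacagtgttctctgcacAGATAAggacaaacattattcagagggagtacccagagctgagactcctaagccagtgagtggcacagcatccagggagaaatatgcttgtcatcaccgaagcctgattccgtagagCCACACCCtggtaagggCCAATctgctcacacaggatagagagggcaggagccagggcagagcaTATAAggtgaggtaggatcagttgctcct
Hbb-bt: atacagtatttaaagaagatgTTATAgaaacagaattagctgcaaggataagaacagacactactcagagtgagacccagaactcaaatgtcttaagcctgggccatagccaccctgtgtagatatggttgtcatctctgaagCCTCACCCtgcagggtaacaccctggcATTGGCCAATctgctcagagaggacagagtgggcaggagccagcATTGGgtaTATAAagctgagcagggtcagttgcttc
Alas2: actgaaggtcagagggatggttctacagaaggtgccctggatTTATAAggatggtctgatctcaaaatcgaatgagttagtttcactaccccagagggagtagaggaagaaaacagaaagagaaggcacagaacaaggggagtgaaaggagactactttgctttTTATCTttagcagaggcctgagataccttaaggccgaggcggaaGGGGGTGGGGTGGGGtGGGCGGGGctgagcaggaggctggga

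Of the 32 genes, 24 had 27 such windows in the RefSeq table (some with more than 1 start). A GATA word was present in 15 of the 27 windows (55.6%), against 26.5% of all 32851 windows of the same length. The genes with a GATA word were Hbb-y, Hbb-bs, Hbb-bh2, Hba-x, Hba-a1, Hba-a2, Klf1, Tal1, Gfi1b, Hemgn, Epor, Alas2, Cpox, Epb42 and Rhag. Hbb-bh1, Nfe2, Lmo2, Slc25a37, Fech, Slc4a1, Ank1 and Car2 had no window and were not examined for any of these words. CCAAT was present in 48.1% against 33.8%, the CACC-type word in 63% against 45.9%, and TATAA in 33.3% against 22.8%. These counts describe letters in a window and are not evidence of binding. The transcripts of Hba-a1 and Hba-a2 are near copies: 86.9% of the 50-base windows of Hba-a2 occur exactly in Hba-a1. Likewise 58.3% of the 50-base windows of Hbb-bt occur in Hbb-bs, whereas Hbb-bh1 and Hbb-y share 0 such windows. The division of reads within the first 2 pairs is uncertain, since the counting program is not known. The sum of each pair does not depend on that division, but it is too low if shared reads were dropped.

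Red cell transcripts differed severalfold between embryos of the same genotype, and the genotypes did not differ in any of them by the test used. Values are TPM, in which reads are divided by gene length and every library is scaled to the same total. Between 57.75 M and 59.15 M reads (M for mega) per library could be recovered from the steps between TPM values. The genotypes were compared by limma on log2(TPM + 1) over the 13596 genes that reached 1 TPM in at least 4 embryos, which left in 31 of the 32 members. Of these, 0 passed at a Benjamini-Hochberg adjusted p under 0.05, as did 0 of all tested genes (0.00%), and the smallest adjusted p of a member was 0.467. Limma gave 0 members an unadjusted p under 0.05, against 5.55% of all genes on the higher side and 8.0% on the lower side (754 and 1088 genes, or 1218 and 909 with median-ratio scaling). For 31 of 31 members the values of the genotypes overlapped, where 3.63% of all genes lay wholly higher and 3.82% wholly lower in mutants. The median log2 fold change of the members was 0.07, beside -0.045 over all tested genes. On the higher side were 25 members and on the lower side 6, where 37.7% of all tested genes were on the higher side. That background depends on the scaling. With median-ratio scaling the median log2 fold change was 0.0017 over all tested genes and 0.12 over the members, 27 of which were on the higher side. The balance among the members rested on single embryos: 5 members were on the higher side without WT 1, and 9 without mutant 3.

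**Figure D1:**
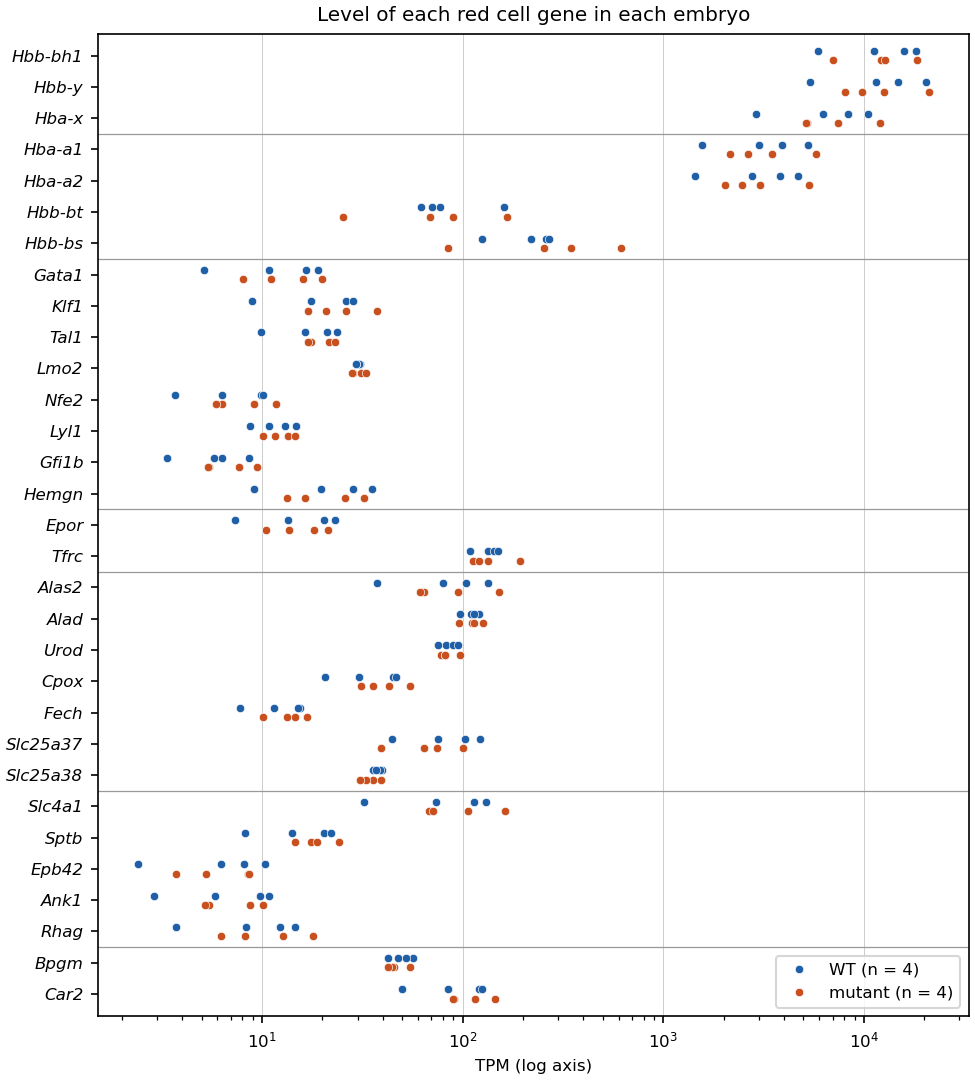
TPM (log axis) of the 31 tested red cell genes in each of 4 WT (blue) and 4 mutant (orange) embryos, 1 point per embryo, with lines between functional groups. The points of the genotypes interleave in every row, from Hbb-bh1 and Hbb-y at the top down to genes such as Epb42, at 2.40 to 10.4 TPM.

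Embryonic beta-type chains were the most abundant of the red cell transcripts. Hbb-bh1 (chromosome 7, 103841637 to 103843164, build GRCm38) was at 5909, 11208, 15847 and 18246 TPM in WT 1 to 4 and at 12212, 12740, 18426 and 7066 TPM in mutants 1 to 4. The lowest embryo was a WT and the highest a mutant, and each genotype spanned most of the whole range. On average Hbb-bh1 was at 12803 ± 5446 TPM (SD, n = 4) across the WT embryos, with 12611 ± 4645 TPM for mutants. Mutants minus WT gave 0.020 ± 0.37 on the log2 scale (SE; adjusted p = 0.984 by limma), with a 95% interval of -0.82 to 0.86. The data thus leave room for a difference of well over 1.5-fold in either direction. Hbb-y (chromosome 7, 103851749 to 103853216) was at 5428, 11449, 14781 and 20328 TPM in WT 1 to 4 and at 9798, 12583, 21191 and 8031 TPM in mutants 1 to 4. Its log2 fold change was 0.042 ± 0.41 (SE; adjusted p = 0.968 by limma). WT 1 and mutant 4 were the lowest 2 embryos for both chains, and WT 4 and mutant 3 the highest. These values rested on 64504 to 267669 reads per embryo, so counting error was small beside the spread.

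Alpha-type chains ranked the 8 embryos as Hbb-y did, whereas for Hbb-bh1 mutant 1 and WT 2 changed places. Hba-x (chromosome 11, 32276400 to 32278116), the zeta chain, was at 2901, 6245, 8389 and 10471 TPM in WT 1 to 4 and at 5243, 7484, 12019 and 5182 TPM in mutants 1 to 4. Mutants minus WT gave 0.15 ± 0.40 on the log2 scale (SE; adjusted p = 0.870 by limma). The alpha chain gene Hba-a1 was at 3442 ± 1561 TPM (SD, n = 4) across the WT embryos, with 3522 ± 1609 TPM for mutants, and its near copy Hba-a2 at 3191 ± 1409 and 3217 ± 1480 TPM. Hba-a1 ran from 1563 TPM in WT 1 to 5792 TPM in mutant 3, and Hba-a2 from 1436 to 5347 TPM in the same embryos. All globin rows together took 1.76% of TPM in WT 1, 3.49% in WT 2, 4.71% in WT 3 and 5.95% in WT 4. In mutants 1 to 4 they took 3.28%, 3.97%, 6.36% and 2.46%. In RNA from a whole embryo, fewer red cells and less globin RNA per red cell cannot be told apart.

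Adult beta chains were low and did not keep to that order. Hbb-bs was at 261.8, 125.7, 219.9 and 270.9 TPM in WT 1 to 4 and at 346.8, 254.6, 619.7 and 84.8 TPM in mutants 1 to 4. WT 1, lowest for the embryonic chains, was near the top of the WT embryos here, and WT 2 was the lowest of them. Hbb-bt was at 61.9, 70.3, 76.9 and 161.4 TPM in WT 1 to 4 and at 89.6, 68.6, 166.0 and 25.4 TPM in mutants 1 to 4. Mutant 4 was lowest and mutant 3 highest of the 8 embryos for both, a span of 7.31-fold for Hbb-bs and 6.54-fold for Hbb-bt. The log2 fold changes were 0.31 ± 0.52 (SE; limma adjusted p = 0.791) for Hbb-bs and -0.26 ± 0.51 (limma adjusted p = 0.823) for Hbb-bt. Hbb-bs exceeded Hbb-bt by 4.23, 1.79, 2.86 and 1.68 times in WT 1 to 4, and by 3.87, 3.71, 3.73 and 3.34 times in mutants 1 to 4. The WT embryos thus spread over a wider range of this ratio than the mutants; reads shared by the pair limit what it means. Hbb-bh2, the further beta-type row, had 0 to 18 reads per embryo and at most 1.62 TPM, and was not tested. Its 0 in WT 1 is a count that allows up to 3 reads.

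Adult beta chains would also be present in maternal blood. The 8 genes listed for white cells of adult blood summed to 0.978, 0.426, 0.640 and 0.562 TPM in WT 1 to 4 and to 1.599, 5.88, 7.47 and 0.172 TPM in mutants 1 to 4. Camp was at 0 in every embryo, and none of the 8 genes reached the level for testing. Mutant 3 had the highest and mutant 4 the lowest sum, as for Hbb-bs and Hbb-bt. Among the WT embryos WT 1 had the highest sum and the highest share of adult beta chains, though it was the lowest of them for Hbb-bt. Not all embryos kept to this order. Mutant 2, with a sum of 5.88 TPM, had an adult beta share of 1.26%. In mutant 1, with a sum of 1.599 TPM, that share was 1.94%, as in mutant 3. Genes of trophoblast and decidua summed to 11.3 to 34.8 TPM in WT and to 83.0, 333.0, 52.2 and 26.2 TPM in mutants 1 to 4. In mutants 1 to 4, Prl8a2 alone was at 49.2, 291.3, 22.2 and 7.66 TPM, and in WT at 1.20 to 15.3 TPM. The part of any of these genes in the adult beta values was not tested.

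Ratios between chains within a library set aside the total amount of globin RNA, and these too overlapped between genotypes. Hbb-bh1 stood to Hbb-y as 1.09, 0.979, 1.07 and 0.898 to 1 for WT 1 to 4, and for mutants 1 to 4 this ratio was 1.25, 1.01, 0.870 and 0.880. The mean difference between genotypes was -0.022 on the log2 scale (exact permutation p = 0.914 over 70 assignments, two-sided; adjusted over 4 ratios 0.914). Mutant 1 had the highest beta-h1 share of the 8 embryos, and mutants 3 and 4 the lowest. The adult beta chains made up 2.78%, 0.858%, 0.960% and 1.11% of beta-type transcripts for WT 1 to 4, against 1.94%, 1.26%, 1.94% and 0.725% in mutants 1 to 4. The log2 ratio of adult to embryonic beta chains differed by 0.11 (exact permutation p = 0.857, adjusted 0.914), and by -0.30 when Hbb-bt alone stood for the adult chains. Leaving out single embryos took it from -0.076 (without WT 2) to 0.50 (without WT 1), with 0.42 without mutant 4, and its sign was not stable.

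For the alpha-type chains, Hba-a1 and Hba-a2 together made up 48.0% to 50.8% in WT and 44.6% to 49.4% in mutants, so that zeta and alpha TPM were near balance in all 8 embryos. This share, like that of the adult beta chains, would be too low if reads shared by near copies were dropped. The level of alpha-type over beta-type transcripts has the same limit. The log2 ratio of alpha to zeta was -0.060 ± 0.075 (SD, n = 4) for WT embryos against -0.16 ± 0.12 for mutants. Mutants minus WT came to -0.10 (exact permutation p = 0.229, adjusted 0.914). Alpha-type over beta-type transcripts gave 0.506, 0.527, 0.522 and 0.525 in WT 1 to 4, a narrow band. In mutants 1 to 4 that ratio was 0.462, 0.546, 0.573 and 0.615, below the WT band in mutant 1 and above it in the others. The mean log2 difference was 0.071 (exact permutation p = 0.457, adjusted 0.914), with SDs of 0.027 in WT and 0.18 in mutants. This value rested on single mutants: it was 0.014 without mutant 4 and 0.15 without mutant 1. Without mutant 1 the groups no longer overlapped, and the exact permutation p was 0.0286, the smallest that 3 mutants against 4 WT can give (0.114 adjusted over the 4 ratios). With all 8 embryos no ratio passed the test; with 4 embryos per genotype no exact p can lie below 0.0286, and a difference in spread was not tested.

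**Figure D2:**
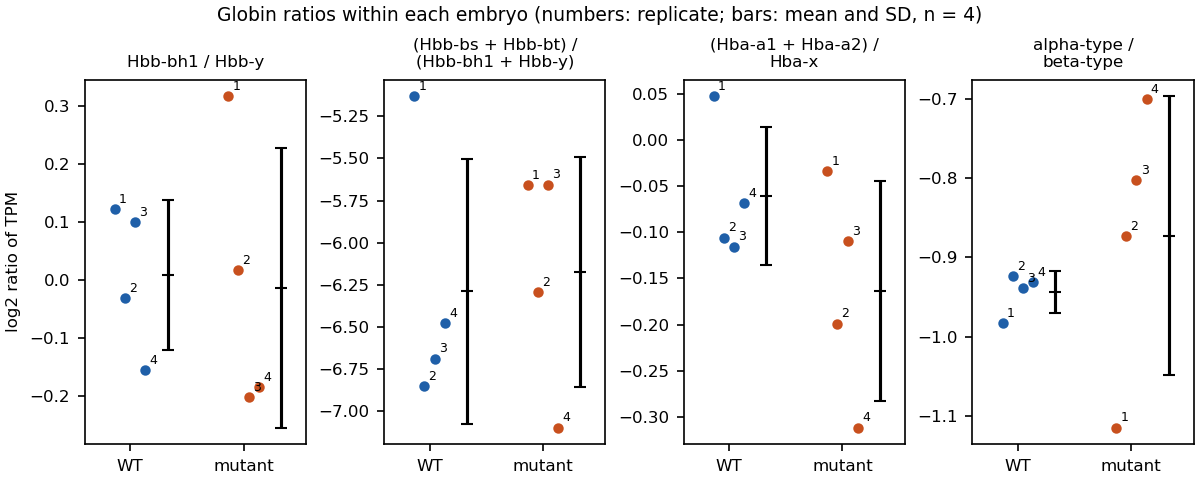
Log2 ratios of globin TPM within each embryo, 1 panel per ratio with its own vertical scale, WT in blue and mutants in orange, numbered by replicate, with the mean and SD (n = 4) as bars. The genotypes overlap in all 4 panels, and in the alpha-type over beta-type panel the WT embryos lie close together between mutant 1 and mutant 2.

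Erythroid transcription factors were present at moderate levels and mostly followed the globins from embryo to embryo. Gata1 (chromosome X, 7959260 to 7978071), the master regulator of red cell genes, was at 5.16, 10.8, 16.7 and 19.1 TPM in WT 1 to 4 and at 11.1, 15.9, 19.9 and 8.01 TPM in mutants 1 to 4. WT 1 and mutant 4 were again lowest and WT 4 and mutant 3 highest, on 236 to 970 reads. Mutants minus WT gave 0.15 ± 0.38 on the log2 scale (SE; adjusted p = 0.871 by limma). Klf1 (chromosome 8, 84901928 to 84905291), which activates beta-type globin and membrane genes, was at 8.89, 17.5, 26.1 and 28.5 TPM in WT 1 to 4. In mutants 1 to 4 Klf1 was at 17.0, 26.4, 37.5 and 20.8 TPM. Its log2 fold change of 0.37 ± 0.35 was the largest of the members on the higher side (limma adjusted p = 0.616), and it ran from 0.045 without WT 1 to 0.57 without WT 4. In mutant 4 Klf1 stood at 2.59 times Gata1, against 1.49 to 1.88 times in the other embryos.

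Partners of these factors differed in how closely they kept to the pattern. Tal1, which pairs with E proteins on erythroid enhancers, was at 17.8 ± 6.05 TPM (SD, n = 4) across the WT embryos, with 19.8 ± 3.01 TPM for mutants. Nfe2, a factor of globin loci and platelets, was at 7.53 ± 3.11 and 8.26 ± 2.68 TPM, and Gfi1b, a repressor needed for red cells and megakaryocytes, at 6.01 ± 2.15 and 6.99 ± 1.96 TPM. Hemgn, a nuclear protein of blood cells, was at 23.2 ± 11.4 and 22.0 ± 8.72 TPM and ran from 9.10 TPM in WT 1 to 35.4 TPM in WT 4. Lyl1, a relative of Tal1, spanned only 1.69-fold over the embryos. Lmo2, the bridging protein of the Tal1 complex, was at 30.9, 30.3, 29.5 and 29.4 TPM in WT 1 to 4 and at 28.3, 31.1, 28.1 and 33.04 TPM in mutants 1 to 4. Lmo2 is also made by endothelium. It was highest in mutant 4 and lowest in mutant 3, the reverse of how these 2 mutants stood for the globins, and its 95% interval of -0.15 to 0.15 was the narrowest of the members.

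The receptor for erythropoietin and the receptor for iron-loaded transferrin had unlike spreads. Epor, through which erythropoietin keeps red cell precursors alive, was at 7.36, 13.5, 20.3 and 23.2 TPM in WT 1 to 4 and at 13.6, 18.2, 21.3 and 10.5 TPM in mutants 1 to 4. Its order of embryos was that of Gata1, apart from the top 2, and mutants minus WT gave 0.050 ± 0.33 on the log2 scale (SE; adjusted p = 0.953 by limma). Tfrc, which brings iron into most dividing cells, was at 109.3 to 150.9 TPM in WT and at 112.9, 133.4, 194.0 and 120.8 TPM in mutants 1 to 4. Mutant 3 stood above all others for Tfrc, and the span was 1.77-fold, against 3.15-fold for Epor.

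Haem synthesis genes differed in how far they varied between embryos. Alas2 (chromosome X, 150547375 to 150570638), the erythroid enzyme of the first step, was at 37.5, 79.9, 104.7 and 134.0 TPM in WT 1 to 4 and at 64.1, 94.9, 152.3 and 61.5 TPM in mutants 1 to 4. It followed the globins, spanning 4.06-fold, with a log2 fold change of 0.11 ± 0.40 (SE; limma adjusted p = 0.914). Cpox and Fech, of later steps in the mitochondrion, spanned 2.66-fold and 2.14-fold. Cpox was at 35.7 ± 12.4 TPM (SD, n = 4) across the WT embryos, with 41.3 ± 10.4 TPM for mutants, and Fech, which inserts the iron, at 12.5 ± 3.58 and 13.7 ± 2.74 TPM. Alad and Urod, enzymes of cytosolic steps, were nearly level at 96.0 to 126.4 TPM and 75.8 to 97.6 TPM over all 8 embryos. Slc25a38, the mitochondrial carrier that supplies glycine, was at 37.8 ± 1.68 and 34.7 ± 3.63 TPM. It was lowest in mutants 3 and 4, at 33.2 and 30.7 TPM, against 35.8 to 39.5 TPM elsewhere. Its unadjusted limma p of 0.143 was the smallest of any member (adjusted p = 0.467). The log2 fold change of Slc25a38 was -0.12, and -0.013 without mutants 3 and 4, a setting added after seeing the data.

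Slc25a37, which carries iron into mitochondria of red cell precursors, departed from Alas2 in mutants 3 and 4, the 2 embryos in which Slc25a38 was also lowest. It was at 44.6, 75.1, 102.3 and 122.3 TPM in WT 1 to 4 and at 74.4, 100.7, 64.1 and 39.2 TPM in mutants 1 to 4. Mutant 3, which had the most globin, Alas2 and Gata1, was thus below 3 of the WT embryos and mutants 1 and 2 for Slc25a37. Relative to Alas2, Slc25a37 stood at 0.913 to 1.19 in WT, at 1.16 and 1.06 in mutants 1 and 2, and at 0.421 and 0.637 in mutants 3 and 4. This ratio was chosen after its values were seen and has no test. The log2 fold change of Slc25a37 was -0.28 ± 0.34 (SE; limma adjusted p = 0.698), and 0.10 without mutants 3 and 4, a setting added after seeing the data. Leaving out single embryos gave -0.56 (without WT 1) to -0.039 (without mutant 4). The libraries of mutants 3 and 4 also stood apart in 8 host genes of small nucleolar RNAs, which summed to 323.2 and 306.4 TPM there and to 604.9 to 759.8 TPM in the other 6. Their part in the values of Slc25a37 was not tested.

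Membrane and skeleton genes were lowest in the same WT embryo as the embryonic globins. Slc4a1 (chromosome 11, 102348824 to 102366203), the anion exchanger band 3, was at 32.4, 73.7, 114.2 and 130.2 TPM in WT 1 to 4 and at 68.4, 106.9, 163.1 and 71.6 TPM in mutants 1 to 4. Its span of 5.04-fold was the widest outside the adult beta chains, and mutants minus WT gave 0.31 ± 0.43 on the log2 scale (SE; adjusted p = 0.740 by limma). Rhag, of the Rh complex, ran from 3.71 TPM in WT 1 to 17.9 TPM in mutant 3. Sptb, the beta chain of spectrin, was at 16.2 ± 6.38 TPM (SD, n = 4) across the WT embryos, with 18.8 ± 4.03 TPM for mutants. Ank1, the ankyrin that ties spectrin to band 3, was at 7.35 ± 3.67 and 7.34 ± 2.42 TPM, and Epb42, which strengthens that link, at 6.80 ± 3.40 and 6.55 ± 2.45 TPM. For all 5 genes WT 1 was the lowest embryo, and WT 4 or mutant 3 the highest, while the embryos between were ordered differently from gene to gene.

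Of the red cell enzymes, Car2 moved with the globins and Bpgm little. Car2, a carbonic anhydrase, was at 49.96, 84.8, 120.9 and 124.7 TPM in WT 1 to 4 and at 91.0, 115.3, 145.7 and 89.9 TPM in mutants 1 to 4. Mutants minus WT gave 0.27 ± 0.28 on the log2 scale (SE; adjusted p = 0.645 by limma). Bpgm, which makes the 2,3-bisphosphoglycerate that lowers the oxygen affinity of adult haemoglobin, was at 49.9 ± 6.21 TPM (SD, n = 4) across the WT embryos, with 46.9 ± 5.56 TPM for mutants. In mutant 3 Bpgm was at 44.5 TPM, among the lower embryos.

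**Figure D3:**
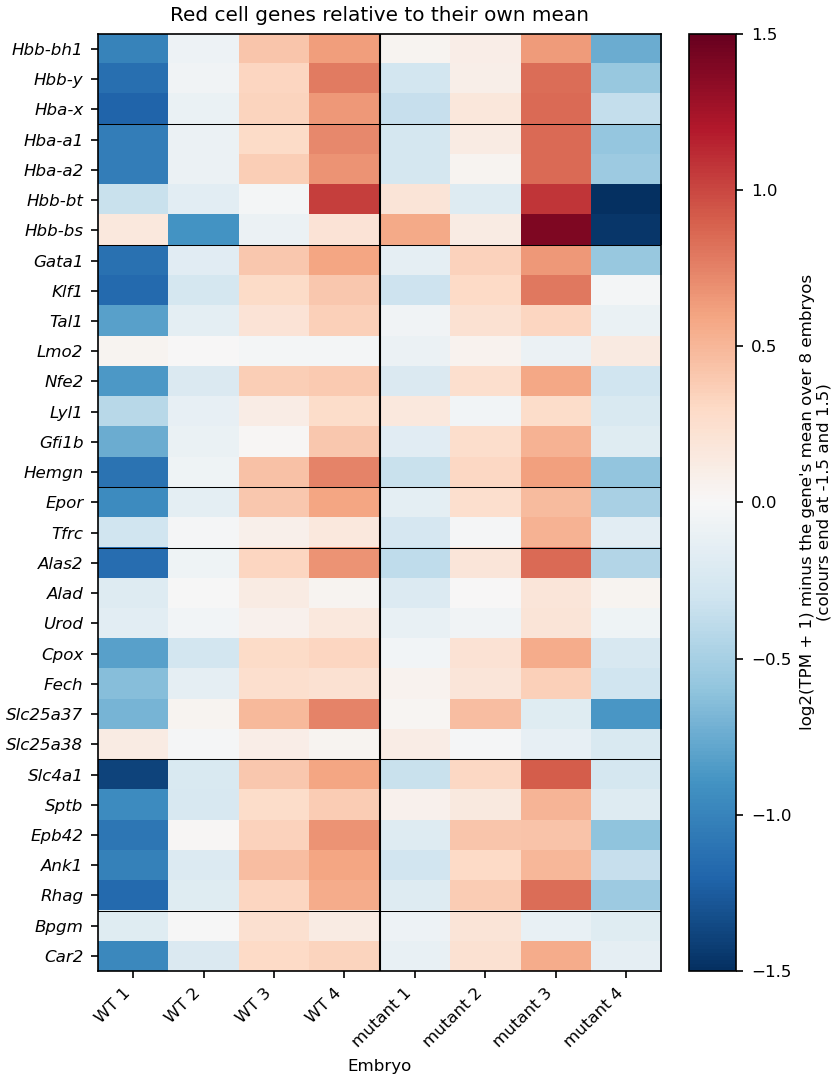
Log2(TPM + 1) of each tested red cell gene minus that gene's mean over the 8 embryos (columns), in red where higher and blue where lower. WT 1 and mutant 4 are blue and WT 4 and mutant 3 red in most rows. Lmo2, Alad, Urod, Slc25a38 and Bpgm stay pale, and Slc25a37 is only faintly blue in mutant 3.

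Counted over the 31 tested members, WT 1 was the lowest embryo for 25, and mutant 3 the highest for 21 and WT 4 for 7. In 24 members the highest embryo exceeded the lowest by at least 2-fold, and in 18 by at least 3-fold. The SD between embryos within a genotype, on the log2(TPM + 1) scale, had a median of 0.60 over the members and 0.14 over all 13596 tested genes. In 24 of 31 members it lay among the top 10% of all tested genes (above 0.33). The exceptions were Lmo2, Lyl1, Tfrc, Alad, Urod, Slc25a38 and Bpgm.

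To describe what remained once the overall level of red cell RNA was allowed for, limma was fitted with the mean log2(TPM + 1) of Hbb-bh1, Hbb-y and Hba-x as a covariate, a setting added after seeing the data. The 3 genes that form the covariate are fitted by it in part by construction. The median SD of the members fell to 0.12, while that of all tested genes was 0.14 as before. Hbb-bs (0.89), Hbb-bt (0.64) and Slc25a37 (0.41) kept the widest spread. At this matched globin level 5 members had an unadjusted p under 0.05, all higher in mutants, against 5.39% of all genes on the higher and 6.77% on the lower side, and 0 members passed after adjustment. These 5 were Klf1 (log2 fold change 0.31 ± 0.12, SE), Cpox (0.20 ± 0.071), Slc4a1 (0.23 ± 0.098), Sptb (0.22 ± 0.089) and Car2 (0.22 ± 0.077), with limma adjusted p of 0.363 to 0.399. The list was chosen with results of these embryos known, so this share is a description.

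**Figure D4:**
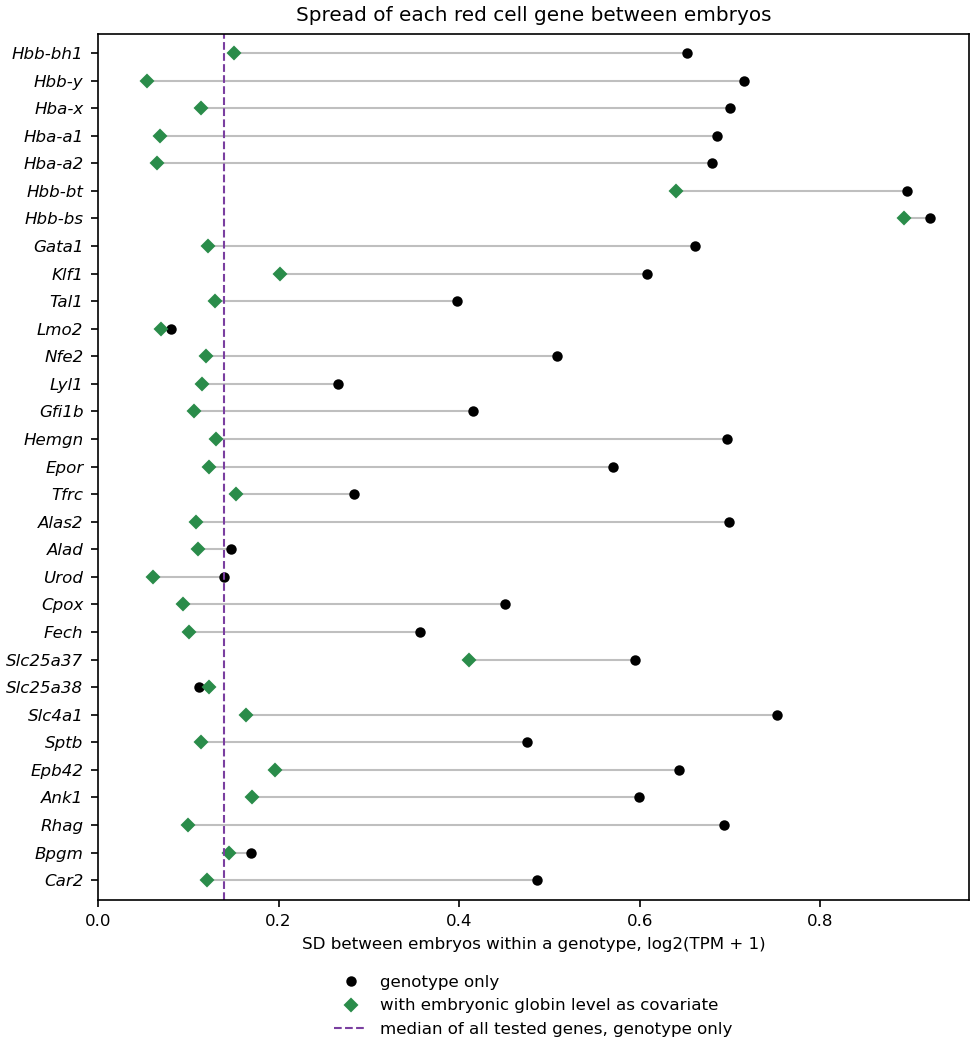
SD between embryos within a genotype on the log2(TPM + 1) scale for each tested red cell gene, with genotype as the only term (black) and with the embryonic globin level as covariate (green). The dashed line is the median of all tested genes, 0.14. Most green points fall near it, and Hbb-bs, Hbb-bt and Slc25a37 stay above 0.4.

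**Figure D5:**
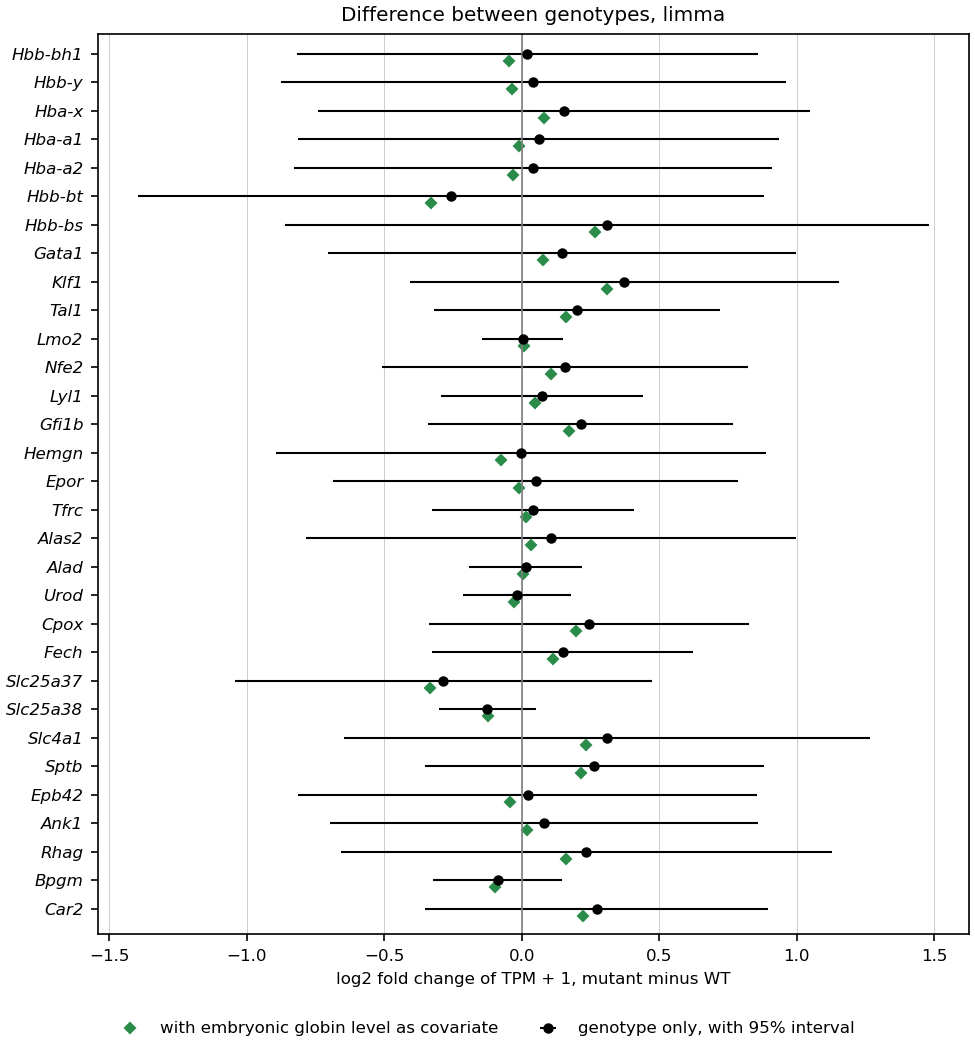
Log2 fold change of TPM + 1, mutant minus WT, for each tested red cell gene from limma (black, bars are 95% intervals, n = 4 per genotype) and with the embryonic globin level as covariate (green, point only). Every black interval covers 0, and Lmo2, Alad, Urod, Slc25a38 and Bpgm have the shortest bars.

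Further genes of the same pathways, on lists that hold no member, were counted in the same fit. Of 26 other genes of haem synthesis and iron handling, all tested, 0 passed the adjusted threshold, and the median log2 fold change was 0.049. At an unadjusted limma p under 0.05, 2 were higher and 1 lower, where all genes had 5.55% and 8.0%. Abcb6, a porphyrin transporter, was at 26.3 ± 1.97 TPM (SD, n = 4) across the WT embryos, with 20.5 ± 3.14 TPM for mutants (limma adjusted p = 0.300), and Isca1, of iron-sulphur cluster assembly, at 18.3 ± 0.349 and 20.6 ± 0.858 TPM (limma adjusted p = 0.330). Trf, the plasma iron carrier transferrin, was at 5.21 to 12.6 TPM in WT and at 52.1, 36.8, 11.7 and 7.65 TPM in mutants 1 to 4. Trf is also made by yolk sac endoderm, whose 9 listed genes summed to 10.5, 32.3, 234.1 and 13.5 TPM in WT 1 to 4 and to 1203, 742.9, 201.0 and 135.1 TPM in mutants 1 to 4. Its part in the level of Trf was not tested. Ppox, the enzyme between Cpox and Fech, was at 20.4 to 25.9 TPM in WT and at 20.9, 23.0, 12.1 and 11.5 TPM in mutants 1 to 4, so that it was low in the same 2 mutants as Slc25a37 (limma adjusted p = 0.376).

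Of 19 other regulators of red cell formation, 17 were tested and 0 passed, with 4 higher and 2 lower at an unadjusted p under 0.05, where all genes had 5.55% and 8.0%. Zfpm1, the partner of Gata1 called FOG1, was at 25.5, 32.7, 39.7 and 42.2 TPM in WT 1 to 4 and at 46.0, 42.4, 56.1 and 50.9 TPM in mutants 1 to 4. The groups did not overlap, though mutant 2 and WT 4 nearly met (log2 fold change 0.49 ± 0.15, SE, and limma adjusted p = 0.298). Such separation was not particular to Zfpm1. Among the other haem, regulator and membrane genes named, Cbfa2t3, Kitl, Isca1 and Cat were also fully separate on the higher side. Abcb6 and Prdx2 were so on the lower side. Of all tested genes, 3.63% were fully separate on the higher side and 3.82% on the lower side. Cbfa2t3, a corepressor that joins the Tal1 complex, was at 2.41 ± 0.436 TPM (SD, n = 4) across the WT embryos, with 3.58 ± 0.486 TPM for mutants (limma adjusted p = 0.291). Kitl, the ligand of the receptor Kit, was at 23.9 ± 1.32 and 28.8 ± 2.07 TPM (limma adjusted p = 0.281), and Foxo3, a factor of stress and red cell maturation, at 15.2 ± 1.50 and 18.1 ± 1.53 TPM. The 2 lower genes, named after their values were seen, were Ldb1, which joins Lmo2 to enhancers, at 154.7 ± 3.89 and 134.7 ± 17.8 TPM (adjusted p = 0.344 by limma), and Tcf3, an E protein partner of Tal1, at 308.0 ± 12.6 and 283.2 ± 16.9 TPM (adjusted p = 0.369 by limma). Of 25 further genes of the red cell membrane and its enzymes, 23 were tested and 0 passed, with 1 higher and 1 lower at an unadjusted p under 0.05. These were Cat, catalase, at 117.1 ± 6.19 and 134.2 ± 8.10 TPM, and Prdx2, an abundant peroxidase of red cells, at 674.8 ± 21.04 and 584.4 ± 49.1 TPM. The water channel Aqp1 was at 1.65 ± 0.426 and 2.88 ± 1.34 TPM, and stomatin, Stom, at 13.2 ± 1.36 and 15.2 ± 1.92 TPM.

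Markers of other cells that share genes or lineage with red cells were summed in the same embryos. The 12 endothelial genes summed to 252.7 to 296.6 TPM in WT and to 282.7 to 375.5 TPM in mutants, with WT 1, lowest for red cell genes, the highest WT embryo. Of these 12, 9 were higher in mutants at an unadjusted p under 0.05 (5.55% of all genes) and 0 passed after adjustment. All 9 yolk sac endoderm genes were likewise higher at that level, with a median log2 fold change of 2.84 and 0 passing, and both sums were highest in mutant 1. Whether the 2 are linked was not tested. Of the endothelial genes, Cdh5 was at 42.3 ± 3.67 TPM (SD, n = 4) across the WT embryos, with 55.7 ± 6.20 TPM for mutants. The 9 genes of megakaryocytes and platelets summed to 11.4, 30.0, 14.0 and 26.8 TPM in WT 1 to 4 and to 17.8, 19.0, 17.4 and 7.39 TPM in mutants 1 to 4. Mutant 4 and WT 1, the lowest embryos for the embryonic globins, were also the lowest for this sum. Mutant 3, the highest for the embryonic globins, was below mutants 1 and 2, WT 2 and WT 4 here. Pf4, a platelet chemokine, was lowest in mutant 4 (1.31 TPM), where the remaining 7 embryos held 5.02 to 14.3 TPM. The 11 macrophage genes also had their lowest sum in mutant 4, 3.96 TPM against 8.73 to 12.7 TPM elsewhere. The 7 genes of blood progenitors summed to 40.2 to 47.9 TPM over all embryos, and of 4 tested 0 had an unadjusted p under 0.05 by limma.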

How the data were processed

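For 8 single embryos, TruSeq RNA libraries were prepared and sequenced on a NovaSeq instrument, per the labels' protocols. The authors deposited a table of TPM per gene symbol. The build is GRCm38 (mm10), per the submitters' processing notes; the sources used here do not give the aligner, counter, annotation or strandedness. All 8 columns were matched to samples by name. Whole reads were recovered from TPM and merged exon lengths of GENCODE M21 for 93.65% of the 23993 genes above 0 (within 0.02 reads in all libraries), Klf1 and Lyl1 not among them. Genotypes were compared by limma 3.58.1 (R 4.3.3) on log2(TPM + 1) with trend, two-sided, over genes with at least 1 TPM in at least 4 embryos, and adjusted over all of them. Fold changes of TPM + 1 understate those of low genes. Globin ratios used exact permutation. The fit was tested on simulated data. Members, lists and tests were chosen with earlier results of these embryos known. Alternatives were other pseudocounts, filters, scalings (also without globin rows), no trend, array weights, Xist as covariate, a replicate block and leaving out each embryo. Xist was at 63.8, 0.015, 51.4 and 0.0058 TPM in WT 1 to 4. In mutants 1 to 4 Xist was at 0.024, 91.9, 0.020 and 22.4 TPM. Every member is named, and of each further list up to 4 genes with the smallest p. Summed TPM over lists is given for context; that of mitochondrial mRNA was 4.65% to 5.39% of TPM in WT and 5.84% to 6.58% in mutants.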

Additional observations from a re-analysis of the deposited data

Results flagged for a closer look

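For each red cell gene and each globin ratio, the gap from the highest or lowest embryo of a genotype to the next was divided by the range of the 4 embryos. Of 72 such groups, 2 were past the 95% critical value of Dixon's test, where chance alone gives about 1 in 20. Hbb-bt was at 161.4 TPM in WT 4, against 61.9 to 76.9 TPM in the other WT embryos, a ratio of 0.849. Hbb-bh2 was at 1.62 TPM in mutant 3, against 0.565 to 0.690 TPM in the other mutants, on 18 reads against 6 to 7, a ratio of 0.881.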

How the results depend on the processing

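No red cell gene passed the adjusted threshold under any of the 21 alternative settings of the fit. The count of all genes called by limma was 0 to 1 when 1 embryo was left out (1 without mutant 2), 3 without mutants 3 and 4, 1 with the embryonic globin level as covariate, and 0 in the other settings, limma voom on recovered reads included. The count of members at an unadjusted p under 0.05 was 0, except 1 with array weights, 0 to 1 when 1 embryo was left out (1 without mutant 1 and 1 without mutant 4) and 5 with the globin covariate; it was 0 by the exact permutation test per gene and with the replicate number as a block. Same-numbered embryos showed no likeness: they correlated at -0.062, 0.04, -0.194 and -0.245 after centring, so that no pair was over 0.1. These values cannot show whether same-numbered embryos shared a litter or batch, and the block is no batch correction. The difference in the log2 ratio of adult to embryonic beta chains was -0.30 with Hbb-bt alone. When 1 embryo was left out, that difference ran from -0.076 to 0.50, the one for Hbb-bh1 over Hbb-y from -0.13 to 0.041, the one for alpha over zeta from -0.15 to -0.054, and the one for alpha-type over beta-type from 0.014 to 0.15 (exact permutation p under the threshold only without mutant 1). Without mutants 3 and 4 the Hbb-bh1 over Hbb-y difference was 0.16 and the alpha-type over beta-type difference -0.050, both of opposite sign to the values from all embryos.

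The direction of small differences depended on single embryos: 25 of 31 members changed side when 1 embryo was left out. The log2 fold changes then ran over these ranges: Hbb-bh1 -0.31 to 0.27, Hbb-y -0.33 to 0.31, Hba-x -0.22 to 0.40, Hba-a1 -0.27 to 0.31, Hba-a2 -0.30 to 0.27, Hbb-bt -0.66 to 0.23, Hbb-bs -0.10 to 0.85, Gata1 -0.20 to 0.37, Tal1 -0.039 to 0.35, Lmo2 -0.041 to 0.035, Nfe2 -0.10 to 0.32, Lyl1 -0.052 to 0.18, Hemgn -0.37 to 0.24; Epor -0.26 to 0.25, Tfrc -0.12 to 0.13, Alas2 -0.25 to 0.35, Alad -0.046 to 0.085, Urod -0.084 to 0.036, Fech -0.040 to 0.27, Slc4a1 -0.10 to 0.56, Sptb -0.0075 to 0.44, Epb42 -0.33 to 0.25, Ank1 -0.24 to 0.29, Rhag -0.12 to 0.46, Car2 -0.0033 to 0.43. The 6 that kept their side ran over Klf1 0.045 to 0.57, Gfi1b 0.0028 to 0.38, Cpox 0.014 to 0.39, Slc25a37 -0.56 to -0.039, Slc25a38 -0.18 to -0.069 and Bpgm -0.17 to -0.024. Members on the other side in further settings, none past the threshold, were as follows. With array weights these were Hbb-bh1 (-0.12), Hbb-y (-0.029), Hba-a1 (-0.0010), Hba-a2 (-0.014), Epor (-0.070), Epb42 (-0.14) and Ank1 (-0.017). With pseudocount 0.1 the member was Hemgn (0.0032), with pseudocount 5 Epb42 (-0.0058), with median-ratio scaling Hemgn (0.046) and Urod (0.034) and with voom Hemgn (0.0051). In settings added after seeing the data, they were Hbb-y (-0.074), Hba-x (-0.012), Hba-a1 (-0.045), Hba-a2 (-0.093), Lmo2 (-0.015), Tfrc (-0.12), Alas2 (-0.048), Alad (-0.094), Slc25a37 (0.10) and Bpgm (0.013) without mutants 3 and 4, and Hbb-bh1 (-0.048), Hbb-y (-0.034), Hba-a1 (-0.011), Hba-a2 (-0.031), Epor (-0.0093) and Epb42 (-0.043) with the globin covariate. The cause of these changes was not tested. Beside the wide spread between embryos, 4 per genotype limit the precision, and not the number of reads.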
